A study of Mus musculus and Homo sapiens with 8 samples.

Results

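The Hippo pathway core and its YAP target genes were described in crypts of the small intestine through 10 genes. The members were chosen by symbol, as the table rows named Yap1, Wwtr1, Tead1, Tead3, Lats1, Lats2, Nf2, Cyr61, Ctgf and Amotl2. All 10 were found among the 13359 genes listed, under the older symbols Cyr61 and Ctgf for Ccn1 and Ccn2. RNA came from C57BL/6 mice aged 2 months in 2 groups of 2 libraries, each library a pool of 3 mice. Mice of both groups carried the Apc Min allele, which truncates the Wnt regulator Apc. For the controls the labels name no other change. The second group was labelled as also lacking Zmynd8, a chromatin reader, in the intestinal epithelium (Zmynd8IEC-/-). The sources used here do not name the Cre line behind that deletion. The series' title joins ZMYND8, the mevalonate pathway and YAP-high intestinal cancer, and the comparison asked how the YAP pathway genes differed between the groups.

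Hippo signalling is a kinase cascade that restrains tissue growth. NF2 (merlin) and junction proteins promote activation of the kinases LATS1 and LATS2, which phosphorylate the coactivators YAP (Yap1) and TAZ (Wwtr1) and keep them out of the nucleus. Unphosphorylated YAP and TAZ bind the TEAD DNA-binding proteins and turn on genes such as Cyr61, Ctgf, Amotl2 and Lats2, the last of which feeds back on YAP. In the intestine YAP is known for its part in regeneration after injury and in adenoma growth. RNA levels do not show the phosphorylation or location of YAP.

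RefSeq promoter windows (GRCm38.p6, 250 bases before to 50 after a start site) were at hand for 8 of the 10 genes, Tead1 and Ctgf being the others. The windows of the TEAD target genes Cyr61, Amotl2 and Lats2 are shown because they carry the letters that TEAD proteins are known to bind. Capitals mark GGAATG or its reverse complement CATTCC, and all are read along the gene's strand, 5′ to 3′.
Cyr61: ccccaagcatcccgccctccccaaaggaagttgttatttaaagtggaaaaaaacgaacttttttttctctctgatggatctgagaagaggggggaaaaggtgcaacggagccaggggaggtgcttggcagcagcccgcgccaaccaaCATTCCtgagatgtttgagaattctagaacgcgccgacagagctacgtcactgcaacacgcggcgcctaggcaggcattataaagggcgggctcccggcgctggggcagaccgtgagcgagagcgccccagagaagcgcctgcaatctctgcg
Amotl2: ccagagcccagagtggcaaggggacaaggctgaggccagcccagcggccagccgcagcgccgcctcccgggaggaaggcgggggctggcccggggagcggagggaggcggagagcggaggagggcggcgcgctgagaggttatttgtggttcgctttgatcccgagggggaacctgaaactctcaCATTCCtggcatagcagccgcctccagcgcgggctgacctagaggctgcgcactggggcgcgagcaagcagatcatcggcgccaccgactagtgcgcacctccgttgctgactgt
Lats2: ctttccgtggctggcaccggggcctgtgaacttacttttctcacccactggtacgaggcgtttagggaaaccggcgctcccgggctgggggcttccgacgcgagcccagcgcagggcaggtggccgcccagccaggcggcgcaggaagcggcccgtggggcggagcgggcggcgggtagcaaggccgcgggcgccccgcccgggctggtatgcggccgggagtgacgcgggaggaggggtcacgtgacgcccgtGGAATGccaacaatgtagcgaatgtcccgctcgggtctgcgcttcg
The Cyr61 window lies at chr3:145649936-145650235 (minus strand), with the match beginning 103 bases upstream of the start site. The Amotl2 window lies at chr9:102717554-102717853 (plus strand), with the match 65 bases upstream of a start site that is 510 bases from the first base of Amotl2 in the deposited table. The Lats2 window lies at chr14:57746074-57746373 (minus strand), with the match beginning 4 bases downstream of the start site. Windows of Yap1, Wwtr1 and Tead3 also held the match, so that 6 of 8 genes had it in 1 or more windows. Over all 27025 genes with a window 16.6% had it, but genes differ in their number of windows. Counted by window it was 8 of 13, against 14.7% of all 32851. Lats1 and Nf2 did not hold these letters in their windows. The AP-1 motif TGANTCA and the sterol regulatory element TCACNCCAC were found in 0 of 13 windows of these genes, against 7.81% and 1.24% of all 32851 windows. Both strands were searched, some windows of a gene overlap, and a match is not a measured binding site.

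Zmynd8, the deleted gene, stood at 6.94 and 4.73 FPKM (reads scaled to gene length and library total) in control replicates 1 and 2. It stood at 7.30 and 7.65 FPKM in the knockout-labelled pools, above both controls. This gene-level value gives no check of the labels, so each direction here rests on them. Library totals recovered from the values were 44718091 to 48778712 reads, and each of the 10 genes rested on 184 to 5492 reads per library. All 8 epithelial markers were listed, led by Krt8, Epcam and Krt20, and these do not tell crypts from other epithelium. Immune markers, 10 in all, summed to 979 and 1327 FPKM in control pools and to 1244 and 946 FPKM in the knockout-labelled pools. Cd74 made up most of these immune sums, at 840 and 1212 FPKM and at 1113 and 845 FPKM. The 11 enterocyte markers summed to 12239 and 13843 FPKM in control pools and to 19540 and 22883 FPKM in the knockout-labelled pools. Of these 11, 3 rose by limma (Slc2a2, Mme and Treh, singled out because they passed, adjusted p = 0.041 to 0.042). The 7 crypt stem cell markers summed to 241 to 250.5 FPKM in the controls and to 158 to 159.9 FPKM in the other group. By limma 0 passed (4 at an unadjusted p under 0.05, 0 with voom). Olfm4, at 133 and 166 FPKM in control replicates 1 and 2, made up most of these sums. Lgr5 and Sox9, singled out because of their values, differed between the controls, at 14.8 and 3.48 FPKM and at 20.1 and 4.57 FPKM. In the knockout-labelled pools they stood at 2.74 and 3.19 FPKM and at 5.07 and 3.95 FPKM. Axin2, also singled out because of its values, was alike in the controls, at 20.6 and 20.3 FPKM. In the knockout-labelled pools Axin2 stood at 13.2 and 9.58 FPKM (log2 fold change -0.81, limma adjusted p = 0.091). Paneth cell markers, 6 in all, summed to 7297 and 9552 FPKM against 4454 and 6336 FPKM, and 2 fell by limma (4 with voom). The 5 listed tuft cell markers summed to 13.8 and 12.6 FPKM against 4.28 and 3.43 FPKM, and 2 fell by limma (2 with voom). The genes that fell, Mmp7, Itln1, Sh2d7 and Sh2d6, are named because they passed. The part of these marker differences in the values of the 10 genes was not tested. In such bulk RNA fewer cells of a type and less RNA per cell cannot be told apart. All genes tested had a median log2 fold change of -0.15, which median-ratio scaling moved by 0.15.

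None of the 10 genes passed the test. By limma on log2(FPKM + 1) over 12948 genes, 0 of 10 had an adjusted p under 0.05, where 0.726% of all genes did (0.595% higher and 0.131% lower in the knockout-labelled pools). The count was also 0 with voom on recovered reads, which called 1.16% of all genes. At an unadjusted p under 0.05 there was 1, Tead1, where 26.6% of all genes lay under it. All 10 passed the filter on low values. Both knockout-labelled pools lay below both controls for 5 of the 10 genes (50%), where 48.5% of all genes did, and above both for 0, where 14.9% did. Control replicate 1 held the highest level for 6 of the 10 genes, where it did for 50% of all genes tested. The groups overlap for the other 5, as for 36.6% of all genes, and 7 of 10 log2 fold changes were negative, as were 71.7% of all. After median-ratio scaling the count was 1 below and 2 above, where 28% and 28.2% of all genes were. The shares called, below both controls and negative lie near or under the background, and the median log2 fold change of the 10 genes, -0.18, lay near that of all genes. Missing the threshold with 2 libraries a group does not show that the genes were alike in both groups. In the authors' deposited table, where 2.13% of genes had a q-value under 0.05, all 10 had a q-value of 1, with the smallest p-value, 0.597, at Tead1.

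**Figure D1:**
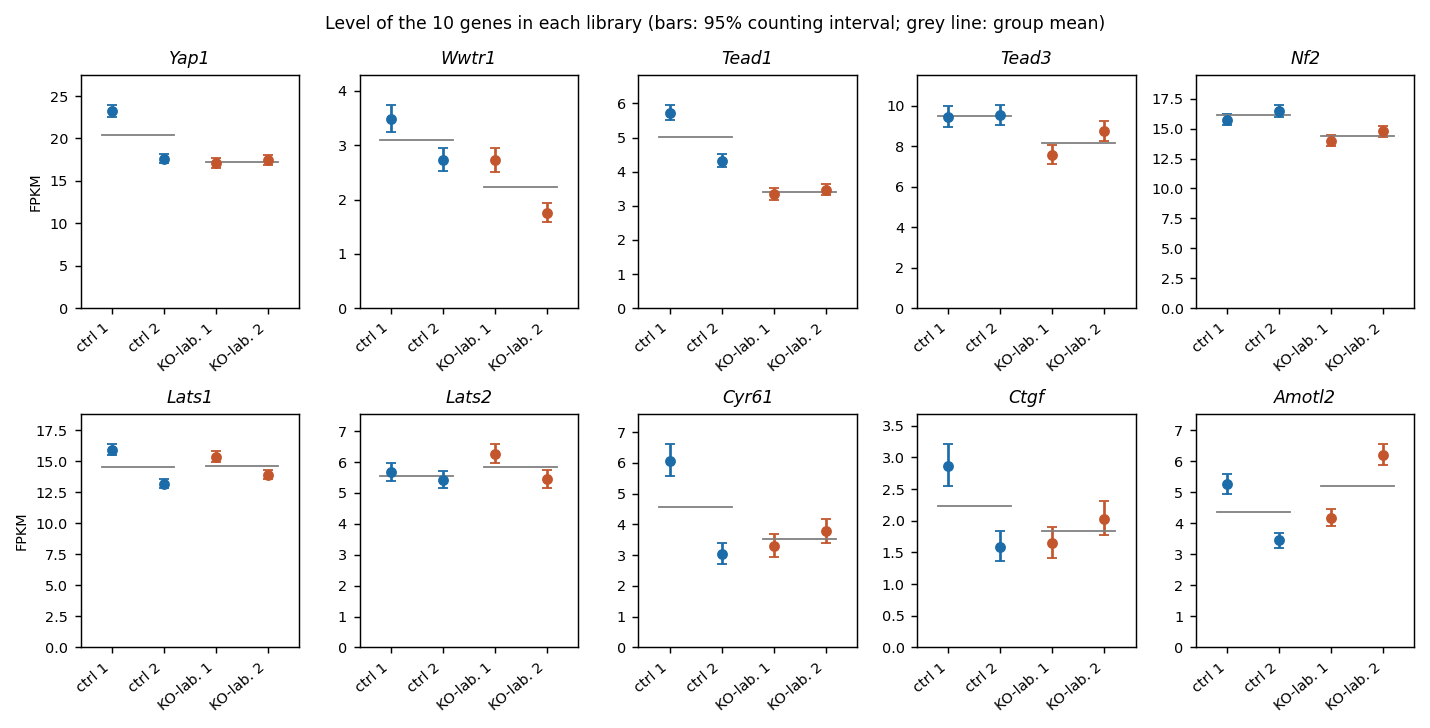
Level of each of the 10 genes in FPKM (vertical axes, starting at 0) in the 2 control libraries (blue) and the 2 labelled knockout (orange), with 95% counting intervals as bars and group means as grey lines. Cyr61, Ctgf and Yap1 stand higher in control replicate 1 than in the other 3 libraries.

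Yap1 encodes the coactivator YAP (chromosome 9, 7931999 to 8004596, minus strand). It had the highest level of the 10 genes, with a mean above that of 75.3% of all genes listed. It stood at 23.2 and 17.6 FPKM in control replicates 1 and 2 and at 17.1 and 17.5 FPKM in replicates 1 and 2 of the knockout-labelled pools. Control replicate 1 was high, and the other 3 libraries lay within the counting intervals of one another, with control replicate 2 only just above the knockout-labelled pools. The group means were 20.4 ± 3.97 and 17.3 ± 0.253 FPKM (SD, n = 2 each), which is -0.22 on the log2(FPKM + 1) scale (limma adjusted p = 0.379, SE 0.15, 95% interval -0.60 to 0.16). Without control replicate 1 it was -0.03, without control replicate 2 it was -0.41, and with median-ratio scaling -0.05.

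Wwtr1 encodes TAZ, the paralog of YAP (chromosome 3, 57455644 to 57575910, minus strand). It stood at 3.48 and 2.73 FPKM in control pools and at 2.72 and 1.75 FPKM in the knockout-labelled pools. Replicate 2 of those was low, while replicate 1 and control replicate 2 were nearly equal. This gave a log2 fold change of -0.35 with a 95% interval of -0.88 to 0.17 (SE 0.20, limma adjusted p = 0.311). It was -0.14 without replicate 2 of the knockout-labelled pools and -0.57 without their replicate 1. On the FPKM scale, which is per length, TAZ RNA was at 0.150 and 0.155 of Yap1 in control pools and at 0.159 and 0.10 of it in the knockout-labelled pools. The groups overlap in that ratio, and Yap1 was the more abundant of the paralogs in each library.

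Among the TEAD factors, Tead1 (chromosome 7, 112679320 to 112906805, plus strand) had the smallest p of the 10 genes. It stood at 5.73 and 4.32 FPKM in control pools and at 3.34 and 3.47 FPKM in the knockout-labelled pools. Both controls lay above both knockout-labelled pools, by more than the counting intervals, and this order held after median-ratio scaling. The means were 5.02 ± 0.997 and 3.41 ± 0.0904 FPKM (SD, n = 2 each). On the log2 scale Tead1 differed by -0.44 with a 95% interval of -0.84 to -0.04 (SE 0.16, limma adjusted p = 0.168), or -0.30 after median-ratio scaling. It was -0.27 without control replicate 1 and -0.61 without control replicate 2.

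Tead3, a second TEAD gene (minus strand of chromosome 17, 28331671 to 28350805), had levels of 9.46 and 9.52 FPKM in control pools and of 7.58 and 8.73 FPKM in the knockout-labelled pools. Its controls differed by less than counting error, and both lay above the other group, whose replicate 2 had a counting interval that overlaps theirs. Tead3 gave a log2 value of -0.20 with a 95% interval of -0.48 to 0.08 (SE 0.11, limma adjusted p = 0.298), and -0.04 after median-ratio scaling, where the groups overlap. Tead1 was at 0.606 and 0.454 of Tead3 in control pools and at 0.441 and 0.398 of it in the knockout-labelled pools, per length. Control replicate 1 had the highest ratio, and control replicate 2 stood close to the other group.

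Nf2 encodes merlin, the membrane-linked activator of the LATS kinases (chromosome 11, 4757644 to 4849544, minus strand). It stood at 15.7 and 16.5 FPKM in control pools and at 14.0 and 14.8 FPKM in the knockout-labelled pools. The groups do not overlap, but the log2 fold change of -0.15 (95% interval -0.39 to 0.08, SE 0.09, limma adjusted p = 0.329) equals the median of all genes to 2 decimals and was 0.01 after median-ratio scaling. Lats1 (chromosome 10, 7681209 to 7716461, plus strand), the main LATS kinase gene here by level, stood at 15.9 and 13.2 FPKM in control pools and at 15.4 and 13.9 FPKM in the knockout-labelled pools. Each group held 1 higher and 1 lower library, and Lats1 differed by 0.01 on the log2 scale (95% interval -0.31 to 0.34, SE 0.13, limma adjusted p = 0.957). It was -0.12 without control replicate 2 and 0.14 without control replicate 1.

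Lats2 encodes the second LATS kinase and is itself a YAP target (chromosome 14, 57689662 to 57746123, minus strand). Its levels were 5.67 and 5.43 FPKM in control pools and 6.26 and 5.44 FPKM in the knockout-labelled pools, so the groups overlap. Between groups Lats2 differed by 0.06 on the log2 scale, with a 95% interval of -0.24 to 0.37 (SE 0.12, limma adjusted p = 0.753). After median-ratio scaling both knockout-labelled pools lay above both controls for Lats1 and Lats2, at 0.18 and 0.21, again without passing. Lats2 ran at 0.356 to 0.412 of Lats1 per length, with both knockout-labelled pools inside the range of the controls. In RefSeq Lats1 overlaps Pcmt1, Lats2 overlaps Gm26440 and Gm52140, Wwtr1 overlaps Gm16016 and Ctgf overlaps Gm15270. The sources used here do not say whether counting used strand, so shared reads are possible for these 4 genes.

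**Figure D2:**
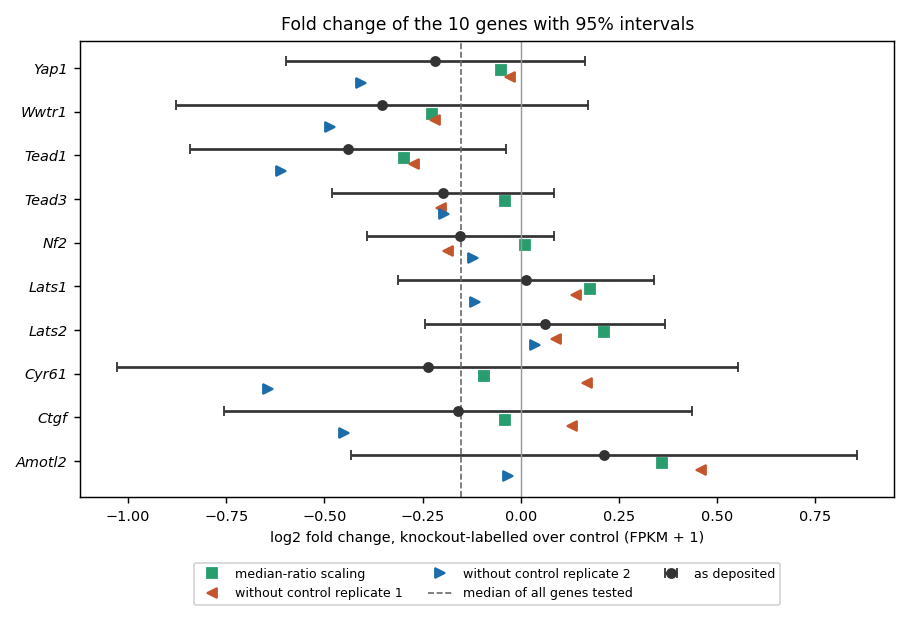
Log2 fold change of each gene, knockout-labelled pools over controls, on the log2(FPKM + 1) scale (horizontal axis), with 95% intervals as bars. Coloured symbols give the value with median-ratio scaling or with a control library left out, and the sign changes for Cyr61 and Ctgf without control replicate 1, for Lats1 and Amotl2 without control replicate 2 and for Nf2 with median-ratio scaling.

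Cyr61 and Ctgf encode secreted matrix-associated proteins and are widely used readouts of YAP and TEAD activity. Cyr61 (minus strand of chromosome 3, 145646971 to 145649985) stood at 6.08 and 3.03 FPKM in control pools, from 551 and 300 reads. In the knockout-labelled pools it stood at 3.29 and 3.78 FPKM. Control replicate 1 was 2.00 times control replicate 2, beyond the counting intervals of 5.58 to 6.60 and 2.70 to 3.40 FPKM, and control replicate 2 was the lowest of the 4. The interval of its difference, -1.03 to 0.55, was the widest of the 10 genes. Its log2 fold change was -0.24 with all libraries (SE 0.30, limma adjusted p = 0.626), 0.17 without control replicate 1 and -0.64 without control replicate 2.

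Ctgf (chromosome 10, 24595442 to 24598683, plus strand) had the lowest level of the 10 genes. It stood at 2.87 and 1.59 FPKM in control pools and at 1.64 and 2.03 FPKM in the knockout-labelled pools. The libraries rank as for Cyr61, with control replicate 1 highest and control replicate 2 lowest. For Ctgf the log2 value was -0.16 with a 95% interval of -0.76 to 0.44 (SE 0.23, limma adjusted p = 0.673), 0.13 without control replicate 1 and -0.45 without control replicate 2. Ctgf was at 0.472 and 0.523 of Cyr61 in control pools and at 0.499 and 0.537 of it in the knockout-labelled pools, so their ratio moved far less than either gene.

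Amotl2 encodes an angiomotin family protein that binds YAP at junctions (chromosome 9, 102717294 to 102733418, plus strand). It stood at 5.26 and 3.45 FPKM in control pools and at 4.19 and 6.21 FPKM in the knockout-labelled pools. Replicates differed by 1.52 times among the controls and by 1.48 times in the other group, beyond counting error in both, and the groups overlap. Amotl2 gave 0.21 on the log2 scale, with a 95% interval of -0.43 to 0.86 (SE 0.25, limma adjusted p = 0.597), 0.46 without control replicate 1 and -0.03 when control replicate 2 or replicate 2 of the knockout-labelled pools was left out. Unlike for Cyr61 and Ctgf, the highest library was replicate 2 of those labelled knockout.

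The levels over the 4 libraries ran, from high to low, Yap1, Nf2, Lats1, Tead3, Lats2, Amotl2, Tead1, Cyr61, Wwtr1 and Ctgf. Yap1 did not overlap Nf2, Lats1 did not overlap Tead3, and Tead3 did not overlap Lats2. The remaining 6 neighbours in this order overlap in their range over libraries.

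The nearest profile to Cyr61 was that of Sparc, a matrix protein gene of fibroblasts and 1 of the 12 fibroblast markers. The search covered the genes tested, with predicted genes (symbols such as those with Gm or Rik) left out. Likeness was the root mean square difference of log2(FPKM + 1) after centring each gene over the 4 libraries, and Sparc lay at 0.010, followed by Loxl2 at 0.012 and Rps29 at 0.027. Sparc stood at 63.5 and 35.2 FPKM in control pools and at 37.5 and 42.3 FPKM in the knockout-labelled pools. With 4 libraries such likeness is common. Predicted genes not counted, 70 genes lay within 0.1 of Cyr61, 202 of Ctgf, 23 of Amotl2 and 1605 of Yap1. Nearest to Ctgf were Tmprss2, Lamc1 and Tmem119, to Amotl2 Nrn1, Reg1 and Dusp5, and to Yap1 Pin4, Rlim and Nin.

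The fibroblast marker sum ranked the 4 libraries as Cyr61 and Ctgf did, but only 4 of its 12 genes did so singly (Sparc, Col1a1, Col1a2 and Col3a1, named after their values were seen). Control replicate 1 was the highest library for 11 of the 12. It was also highest for 7 of 7 proliferation markers, 6 of 7 crypt stem cell markers and 50% of all genes tested. For smooth muscle markers it was highest in 0 of 7. Of the 8 endothelial markers 2 ranked the libraries as Cyr61 did, and the share of all genes that did so was not counted. The fibroblast sum includes Sparc, which was found by its likeness to Cyr61. All 12 fibroblast markers were listed, 0 passed limma (0 at an unadjusted p under 0.05, 0 with voom) and none was at 0 in any library. They summed to 339 and 220 FPKM in control replicates 1 and 2 and to 228 and 237 FPKM in the knockout-labelled pools. Ctgf was at 0.0451 of Sparc in both controls and at 0.0439 and 0.0479 of it in the other group, and the groups overlap. Sparc was picked by its likeness to Cyr61, and Ctgf ranks the libraries as Cyr61 does. A steady ratio follows in part from that choice and is no separate support. The 7 smooth muscle markers ran otherwise, at 338 and 749 FPKM in control pools and 459 and 374 FPKM in the other group. The 8 endothelial markers summed to 31.7 and 24.4 FPKM and to 25.7 and 32.8 FPKM, with the higher control again replicate 1. The part of these other cell types in the Cyr61 and Ctgf values was not tested.

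**Figure D3:**
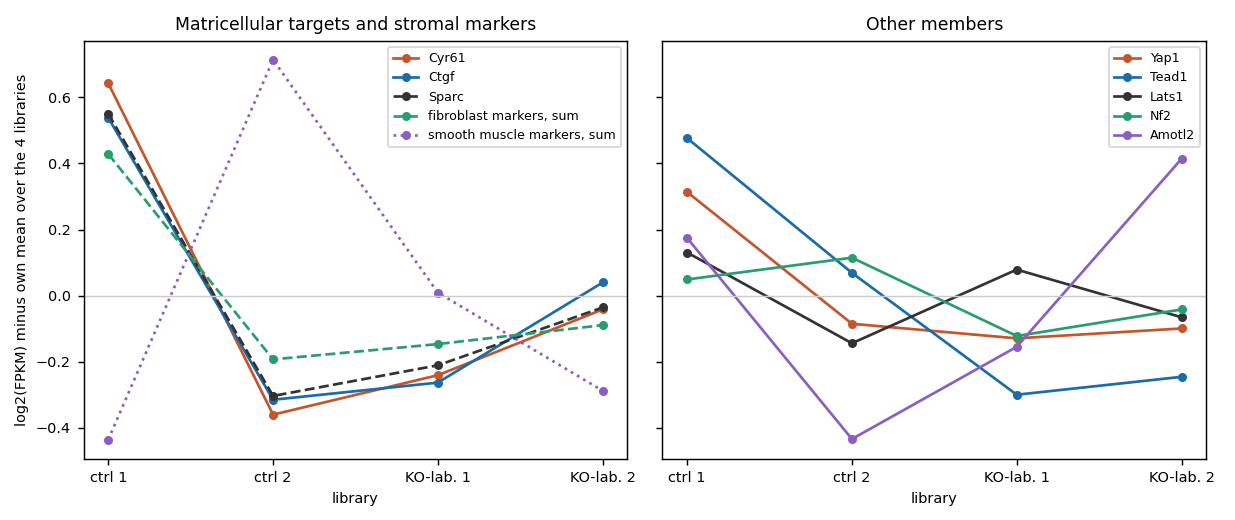
Log2 FPKM of each gene or marker sum minus its own mean over the 4 libraries (vertical axis) by library (horizontal axis), with lines only to guide the eye. Cyr61, Ctgf, Sparc and the fibroblast sum are all highest in control replicate 1, where the smooth muscle sum is lowest, as 50% of all genes tested are highest there.

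The wider pathway was read from lists written from textbook knowledge. Of 19 genes of the Hippo kinase cassette and its relatives, 0 passed limma over all genes tested. An unadjusted p under 0.05 was reached by 4, where 26.6% of all genes reached it, the share for each list below too. With voom 1 gene passed, where 1.16% of all genes did. That gene was Tnik, a kinase of the MAP4K family that also serves Wnt transcription, at 3.98 and 3.73 FPKM in control pools and 7.31 and 9.19 FPKM in the knockout-labelled pools. Its log2 fold change was 0.92 (SE 0.14, limma adjusted p = 0.071), and 1.09 with voom (adjusted p = 0.042). The LATS-related kinase genes Stk38l and Stk38 gave -0.83 and -0.38, with Stk38 at 18.2 and 18.3 FPKM against 13.8 in both knockout-labelled pools (limma adjusted p = 0.103 and 0.104). Map4k3 gave -0.30. Without control replicate 2 Stk38l gave -1.06. The list had 12 negative (63.2%, against 71.7% of all genes) and 7 positive values, with a median of -0.15. Below both controls lay 8 genes (42.1%, where 48.5% of all genes did). After median-ratio scaling 4 lay below both and 6 above both, where 28% and 28.2% of all genes did.

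Upstream regulators at junctions and polarity complexes gave a median of -0.18 over 31 genes, of which 27 were negative (87.1%, against 71.7% of all genes). With median-ratio scaling the count was 17 (54.8%, beside 50.9% over all genes). By limma 0 passed (8 at an unadjusted p under 0.05, 0 with voom). The LIM protein gene Ajuba, singled out because of its values, gave -0.50 with all libraries and -1.05 without control replicate 2. Mpp5, the polarity scaffold also called PALS1, stood at 30.9 and 33.1 FPKM in control pools and 41.8 and 41.4 FPKM in the knockout-labelled pools (0.37, limma adjusted p = 0.116). The polarity gene Scrib stood at 12.7 and 12.1 FPKM and at 9.25 and 9.51 FPKM (-0.37, limma adjusted p = 0.119). Wtip, a LIM protein of the Ajuba family, gave -0.79, and Strn, a scaffold of the phosphatase complex that opposes the kinases, gave -0.37.

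Of the 13 tested genes for YAP, TAZ, the TEADs and nuclear partners, 12 were negative (92.3%, against 71.7% of all genes) with a median of -0.22, and 0 passed limma (2 at an unadjusted p under 0.05, 0 with voom). With median-ratio scaling it was 9 of 13 (69.2%, beside 50.9% over all genes) with a median of -0.05. The median was -0.09 without control replicate 1 and -0.39 without control replicate 2. Both of these cover 12 genes, as Tead2 then fell under the filter on low values. Smarca4, the chromatin remodelling ATPase, stood at 21.5 and 17.6 FPKM in control pools and 15.1 and 14.3 FPKM in the knockout-labelled pools (-0.38, limma adjusted p = 0.152). The TEAD cofactor gene Vgll4 gave -0.42, or -0.71 without control replicate 2, and the AP-1 gene Jun gave -0.24. Tead2, singled out because of its values, was at 4.97 FPKM in control replicate 1 and at 1.06, 0.915 and 0.708 FPKM in the other 3 libraries.

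A general signature of YAP targets, 18 genes tested of 22, had a median of -0.04. Negative values numbered 11 (61.1%, against 71.7% of all genes) and positive values 7. Of the 18, 0 passed limma (1 at an unadjusted p under 0.05, 0 with voom). After median-ratio scaling 7 were negative (38.9%, beside 50.9% over all genes) and 11 positive, with a median of 0.09. Without control replicate 1 the median was 0.04, over the 17 genes still passing the filter on low values. Gadd45b, a stress response gene, was the 1 gene with a p that small, at 10.9 and 9.42 FPKM in control pools and 14.8 and 14.2 FPKM in the knockout-labelled pools (0.48, SE 0.11, limma adjusted p = 0.104). Foxf2, a mesenchymal transcription factor gene, gave 0.32, and Ccdc80 and Arhgef17 gave -0.41 and -0.38. The tissue factor gene F3, also singled out because of its values, was at 34.9 FPKM in control replicate 1 and at 8.85, 6.07 and 6.28 FPKM in the other 3 libraries. Its value of -1.39 became -0.46 without control replicate 1 and -2.33 without control replicate 2. Myof and Nuak2, likewise singled out, gave -0.93 and 0.73 without control replicate 2, against -0.50 and 0.35 with all libraries.

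Genes linked to YAP in regenerating intestine had the lowest median, -0.65 over 15 tested genes. Of these 12 were negative (80%, against 71.7% of all genes). The share was 80% again after median-ratio scaling, beside 50.9% over all genes. By limma 0 passed (2 at an unadjusted p under 0.05, 0 with voom), and 11 lay below both controls (73.3%, against 48.5% of all genes). After median-ratio scaling 7 lay below both, where 28% of all genes did. With control replicate 1 as the only control the list median was -0.85, where all genes tested had -0.19. Birc5, a survival and mitosis gene, stood at 9.06 and 11.3 FPKM in control pools and 6.96 and 6.69 FPKM in the knockout-labelled pools (-0.51, limma adjusted p = 0.121). The 7 proliferation markers summed to 182 to 199 FPKM and to 137 to 139 FPKM, and their part in this was not tested. The EGF receptor ligand gene Areg stood at 9.26 and 5.87 FPKM and at 4.54 and 3.70 FPKM (-0.72, limma adjusted p = 0.149). Msln, for the surface protein mesothelin, gave -0.55, and the cell cycle inhibitor gene Cdkn1a gave 0.35. Clu, a marker of regenerative cells singled out because of its values, was at 329.8 FPKM in control replicate 1 and at 20.8, 19.8 and 4.81 FPKM in the other 3 libraries. Anxa1, chosen likewise, stood at 79.7 FPKM there and at 11.5, 7.41 and 6.03 FPKM in the others. The authors' deposited table gave q-values of 6.22e-34 to Clu and 4.3e-06 to Anxa1. Summed over the 17 listed genes, the level was 855 FPKM in control replicate 1, 373 in control replicate 2, and 375 and 329 FPKM in the knockout-labelled pools. Control replicate 1 stood apart from the other 3 libraries in this sum. Without control replicate 2, Anxa1 gave -3.39, and without control replicate 1 it gave -0.70. Clu gave -0.99 without control replicate 1. The cytokine gene Il33, likewise singled out, stood at 18.9 and 5.02 FPKM in control pools and at 14.0 and 14.2 FPKM in the knockout-labelled pools. Il33 gave 0.47 with all libraries, 1.33 without control replicate 1 and -0.39 without control replicate 2. Without control replicate 1 the list median was -0.43, where all genes tested had -0.11.

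The 18 tested genes of SRF signalling and the immediate early response had a median of -0.15. Of them 12 were negative (66.7%, against 71.7% of all genes), and 9 after median-ratio scaling (50%, beside 50.9% over all genes). By limma 0 passed (4 at an unadjusted p under 0.05, 0 with voom). Vcl, for the adhesion protein vinculin, and Srf, for the transcription factor itself, gave -0.40 and -0.34, with Srf at 13.8 and 13.1 FPKM in control pools and 10.6 and 10.2 FPKM in the knockout-labelled pools. Fos gave 0.44, and Ier3 gave -0.93, or -1.34 without control replicate 2. The directions differed among members, and the list median equalled that of all genes to 2 decimals.

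**Figure D4:**
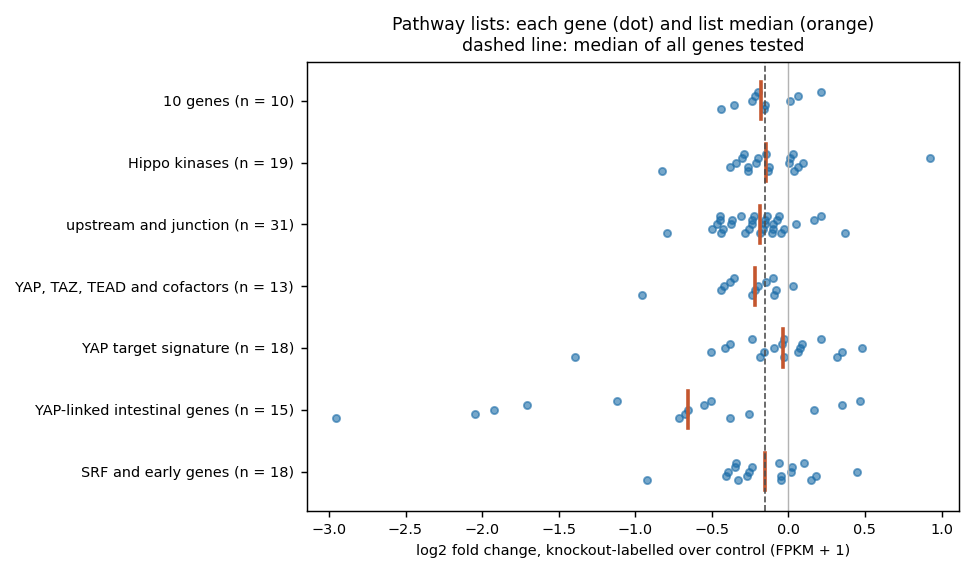
Log2 fold change, knockout-labelled pools over controls, on the log2(FPKM + 1) scale (horizontal axis), for each tested gene (dots) of 7 lists, with list medians as orange lines and the median of all genes tested, -0.15, as a dashed line. List medians lie between -0.22 and -0.04 except for the YAP-linked intestinal genes at -0.65.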

How the data were processed

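RNA-seq of small-intestinal crypts was analysed in 4 libraries, and ChIP-seq of HCT116 cells was not analysed here. HISAT2, BWA and SICER are named, with mm10 and hg38 and no roles, in the submitters' processing notes. The sources used here do not name the counting tool. Per the file headers the authors deposited a value per gene and library, group means, log2 fold changes, p-values and q-values, with no unit named. These deposited values were read as FPKM, since whole reads (within 0.002) came out for all 13359 genes once a gene length and 1 total per library were found. Of 13527 rows 168 were exact repeats and were used once. Each listed gene reached 1 FPKM in the mean of a group, and lower genes were not analysed here.

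Tests used limma (version 3.58.1, R 4.3.3) with trend and robust moderation on log2 of FPKM plus 1, over the 12948 genes reaching 1 FPKM in 2 or more libraries, with Benjamini-Hochberg adjustment at 0.05 and 2 residual degrees of freedom. The fit was tested on simulated data. The labels do not say that pools of 1 group came from different litters or days, and the p-values then cover only spread among these pools, which may be technical. Counting intervals are exact Poisson at 95% (scipy 1.17.1) and cover counting error only. The 10 genes and all lists were chosen with earlier results of these data known. Named genes are the 10 members, Zmynd8, up to 4 of smallest p from each list, up to 3 markers of highest level and the 3 nearest profiles to Cyr61, Ctgf, Amotl2 and Yap1, with exceptions marked as singled out. Alternatives were other pseudocounts, filters, scalings and variance models, voom on recovered reads, a replicate block and each library left out.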

Additional observations from a re-analysis of the deposited data

How the results depend on the processing

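None of the 10 genes passed the threshold under any of the 135 alternative values, and 127 kept their direction. With median-ratio scaling Nf2 gave 0.0114. Leaving out each library in turn gave -0.12 to 0.14 for Lats1, -0.0245 to 0.15 for Lats2, -0.64 to 0.17 for Cyr61, -0.45 to 0.13 for Ctgf and -0.0337 to 0.46 for Amotl2, so their directions rest on single libraries. The cause was not tested.

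The number of genes called among all tested, 94, became 1 without a filter on low values, 2 at a mean of at least 5 FPKM, 50 without the trend, 1 without robust moderation and 150 with voom. It ran from 0 to 616 with a library left out, where the lone library of a group is assumed to vary like the other group. With the replicate number as a block it was 0. The labels share only numbers and do not say that same-numbered libraries belong together. Deviations of same-numbered libraries correlated at 0.045 across genes. With 1 such deviation per group this cannot show whether they share a batch. The block leaves 1 residual degree of freedom.

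List medians moved by more than their spread over the 4 pairings in 9 of 98 values. With median-ratio scaling they became -0.0111 for the kinase cassette, -0.0625 for upstream regulators, 0.0870 for the YAP target signature and 0.0135 for SRF genes, and with quantile normalization -0.0722 for upstream regulators and 0.0823 for the YAP signature. With libraries left out they ran from -0.30 to 0.0307 for the 10 genes, -0.26 to -0.15 for upstream regulators and -0.20 to -0.0375 for SRF genes. Depth does not limit Yap1, Nf2 or Lats1, whose counting intervals are narrow, but Ctgf rests on 184 to 308 reads a library.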
